A study of Drosophila melanogaster with 2 samples.

Results

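The genes described here encode mitochondrial ribosomal proteins. They were chosen by name, as probe sets of a Drosophila array whose annotation gives 1 gene symbol that starts with mRpL, for the large subunit, or mRpS, for the small subunit. The rule found 66 of 13966 probe sets, which read 64 of 10844 genes. Of these, 45 probe sets read 43 mRpL genes and 21 probe sets read 21 mRpS genes. The rule used no measured value.

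RNA from male fly heads of the inbred laboratory strain w1118 (w118 in some labels) was hybridised to 2 Affymetrix DrosGenome1 arrays. Such arrays read a transcript with 1 or more sets of short oligonucleotides, and the signal of a set is an intensity without a unit. The paraquat array was made from heads collected on adult day 3, after 30 h on sucrose with 15 mM paraquat that began on adult day 2. The unexposed array was made from heads collected on adult day 3, and its flies were kept in food bottles. Paraquat, a herbicide, takes up and gives off electrons in cells and yields superoxide. The study used it to see which transcripts respond to oxidative stress. Both groups were males kept in constant darkness at 25 °C and about 200 flies per bottle. Food and paraquat cannot be told apart between these arrays, because the labels give sucrose for 1 group and food bottles for the other. The plain sucrose control that the labels mention was not analysed here. With 1 array per group there was no replicate check, no test was made, and no p-value is given.

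Mitochondria carry their own ribosome, which translates the few proteins encoded by mitochondrial DNA. These are core subunits of the respiratory chain and of the ATP synthase, the complexes that make most of a neuron's ATP. The proteins of this ribosome are encoded in the nucleus, made on cytosolic ribosomes and imported. Its large subunit joins amino acids and its small subunit decodes the messenger. Some of its proteins have a counterpart in the bacterial ribosome, and others are found in mitochondria and not in bacteria.

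In the median, mitochondrial ribosomal protein transcripts differed little between the paraquat array and the unexposed array. The median log2 ratio of paraquat over unexposed was -0.06 over 40 mRpL genes measured above a signal floor on both arrays and 0.02 over 19 measured mRpS genes, beside 0.03 over all 6178 genes measured on both arrays. At least 2-fold lower was 1 of the 40 mRpL genes (mRpL2), where 8.08% of all measured genes were. Outside these 40, mRpL41 was above the floor on the unexposed array alone and at least 2.24-fold lower against the floor. With the paraquat value set at the floor, its log2 ratio of -1.16 had an array error of 1.19. At least 2-fold higher was 1 mRpL gene (mRpL22), where 8.03% of all measured genes were. No mRpS gene passed 2-fold in either direction. Nuclear genes for the respiratory complexes and the ATP synthase, which share the organelle, had a median of -0.68 on the same arrays.

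A gene was called measured where a probe set reached an intensity of 477.3 on both arrays after scaling. That floor is the 40th percentile of the probe sets, each averaged over both arrays. At or above the floor on both arrays were 52.7% of the 12443 probe sets with 1 gene symbol. On the paraquat array 41 of 45 mRpL probe sets and 19 of 21 mRpS probe sets reached it, and on the unexposed array 42 of 45 and 19 of 21 did. Of all probe sets with 1 gene symbol, 59.5% reached it on the paraquat array and 59.4% on the unexposed array. Intensities of measured mRpL genes ran from 858 to 10662 on the paraquat array (median 3291) and from 545.5 to 9812 on the unexposed array (median 3420). Those of mRpS genes ran from 1301 to 11455 on the paraquat array (median 4798) and from 1765 to 12184 on the unexposed array (median 4951). All 59 measured genes of both subunits lay above the brightest control for RNA that was not added (the highest absent control), which stood at 533.2 on the paraquat array and 446.5 on the unexposed array. Probe sets bind their targets with unequal strength, so these ranges do not order the genes by transcript number.

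**Figure D1:**
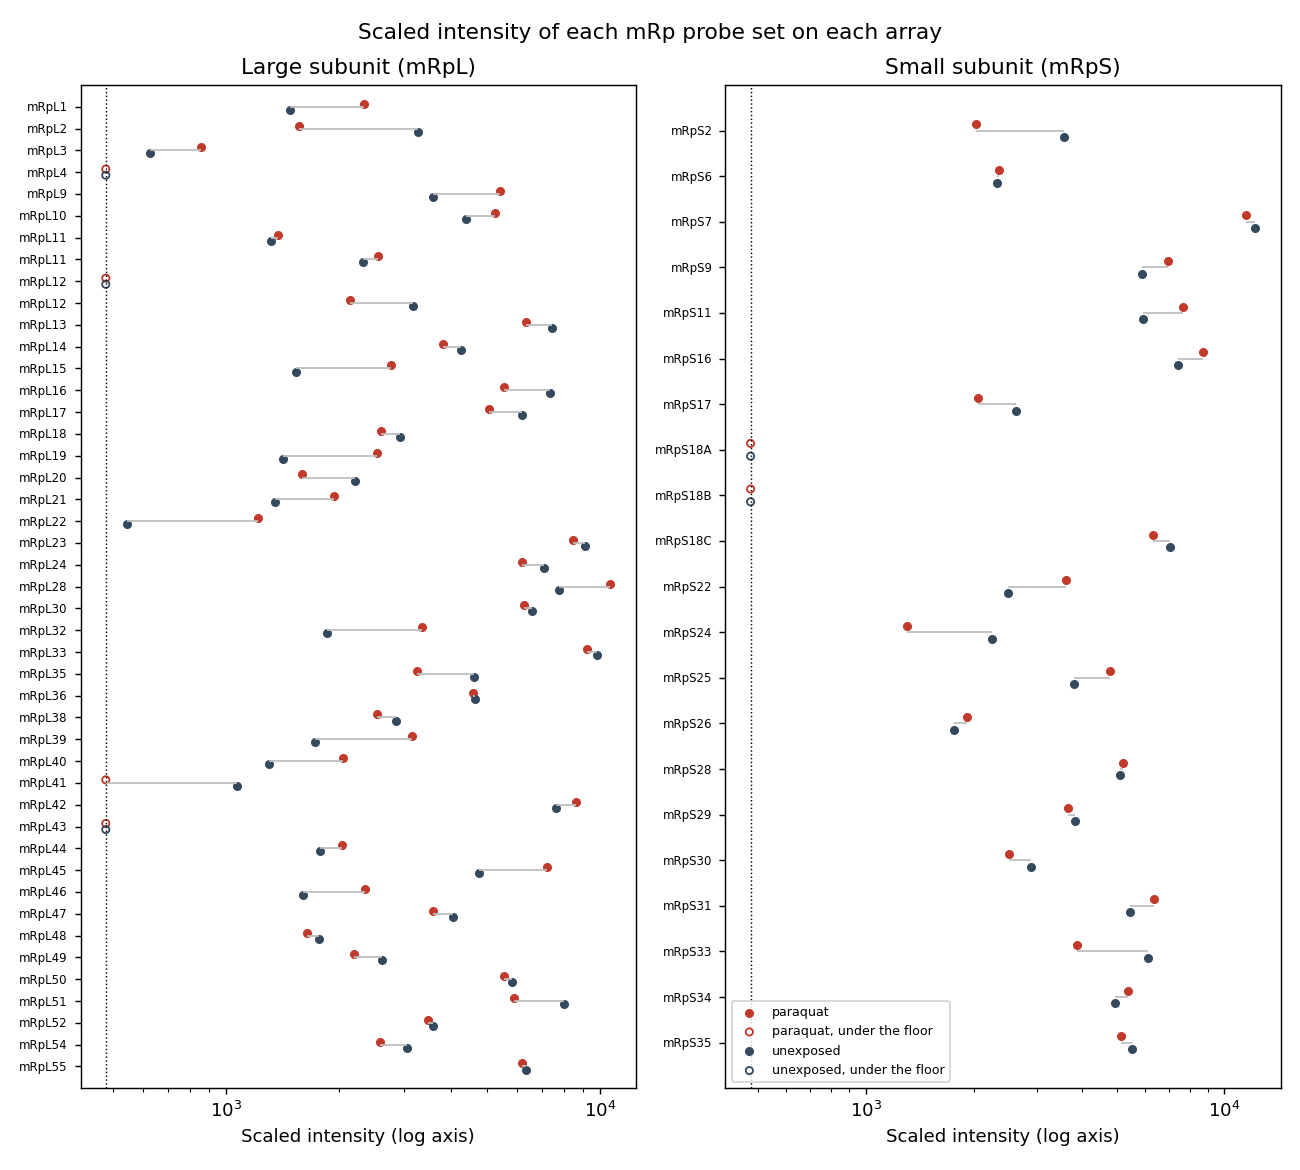
Scaled intensity (log axis) of each of the 45 mRpL and 21 mRpS probe sets, with the paraquat array in red and the unexposed array in dark blue. Open circles are values under the floor of 477.3 (dotted line), drawn at the floor. Most pairs of points lie close together, mRpL2 stands out to the left on the paraquat array, and mRpL22 stands out to the right on it. The gap of mRpL41, open on the paraquat array alone, runs from the floor to 1069 on the unexposed array.

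Ratios below 0 were found for 23 of 40 mRpL genes and 9 of 19 mRpS genes, where 47.8% of all measured genes were below 0. Within 1.5-fold were 30 mRpL genes and 16 mRpS genes, together 46 of 59 (78.0%), where 63.6% of all measured genes were. The SD of the log2 ratios across genes was 0.49 in mRpL and 0.38 in mRpS, beside 0.80 over all measured genes. In mRpL the middle 50% of ratios ran from -0.20 to 0.53, and in mRpS from -0.18 to 0.23. Over all measured genes it ran from -0.37 to 0.45. The width of this range was 0.74 in mRpL, near the 0.82 of all measured genes, and 0.41 in mRpS. Shares past 1.5-fold were near background on the higher side in mRpL and the lower side in mRpS, and under it on the opposite sides. At least 1.5-fold higher were 9 of 40 mRpL genes (22.5%, background 19.1%), and at least 1.5-fold lower was 1 (2.5%, background 17.2%). In mRpS none was at least 1.5-fold higher (background 19.1%) and 3 of 19 were at least 1.5-fold lower (15.8%, background 17.2%). The mRpL median minus the mRpS median was -0.07, with no error of its own from 1 array per group.

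The array error is the SE of a log2 ratio, computed from the control probe sets of these arrays, and leaves out the spread between flies and between RNA preparations. It ran from 0.14 to 1.04 over mRpL genes (median 0.26) and from 0.13 to 0.47 over mRpS genes (median 0.20). Beyond the 95% interval of this error were 7 genes higher and 6 genes lower of the 59, where 14.9% of all measured genes were higher and 14.9% lower. The higher ones were mRpL9, mRpL15, mRpL28, mRpL32, mRpL39, mRpL45 and mRpS11. The lower ones were mRpL2, mRpL16, mRpL35, mRpL51, mRpS2 and mRpS33. Of 40 mRpL genes 6 were higher and 4 lower, and of 19 mRpS genes 1 was higher and 2 lower.

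**Figure D2:**
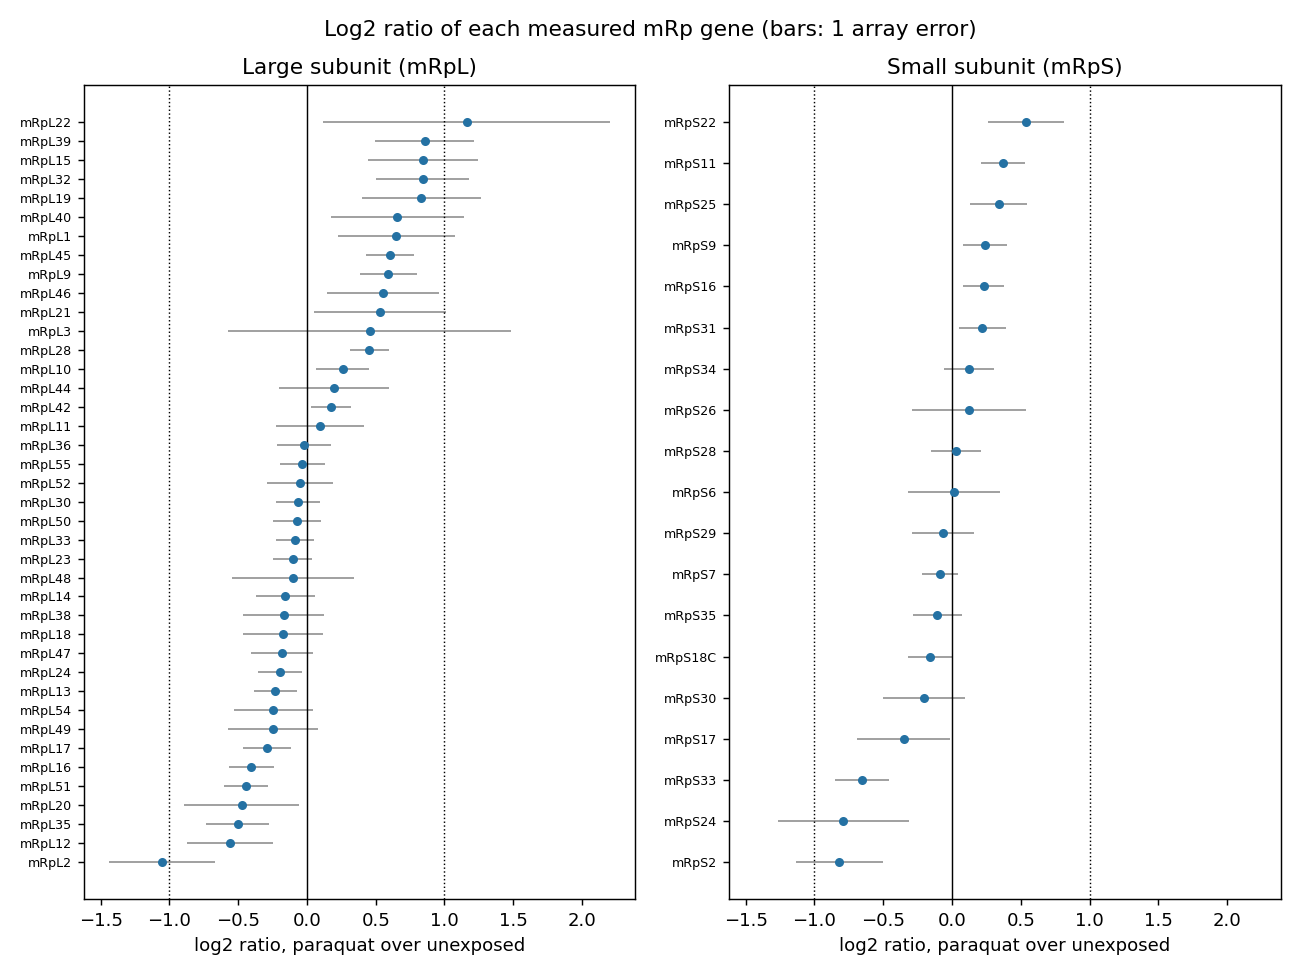
Log2 ratio of paraquat over unexposed for each measured gene, sorted within the large subunit (40 genes, left) and the small subunit (19 genes, right). Bars are 1 array error and dotted lines mark 2-fold. Only mRpL2 (-1.05) and mRpL22 (1.16) lie past 2-fold among the genes drawn, and the bar of mRpL22 is the widest in the plot (1.04).

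In the catalytic core of the large subunit, mRpL2 had an intensity of 1571 on the paraquat array and 3260 on the unexposed array. Its log2 ratio was -1.05 ± 0.38 (array error), the lowest of all measured mitochondrial ribosomal proteins, and -0.87, short of 2-fold, with a pseudocount in place of the floor. In bacteria its counterpart L2 lies beside the peptidyl transferase centre, where peptide bonds form. The gene mRpL16, whose bacterial counterpart helps hold transfer RNA in place there, had a smaller difference in the same direction, with 5540 on the paraquat array and 7331 on the unexposed array (log2 -0.40 ± 0.16). By contrast, mRpL3, another core protein, had 858 on the paraquat array and 625 on the unexposed array. That ratio of 0.46 lies well inside its array error of 1.03, since both values are near the floor. The remaining gene listed here with the core, mRpL4, was not above background. It had -92.2 on the paraquat array and -42.7 on the unexposed array, so no ratio can be given.

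The stalks and the site where translation factors bind are built from mRpL1, mRpL10, mRpL11 and mRpL12. In bacteria the L1 stalk moves spent transfer RNA out, and L10 carries the copies of L12 that recruit elongation factors. The intensity of mRpL1 was 2334 on the paraquat array and 1486 on the unexposed array (log2 0.65 ± 0.43). For mRpL10 the values were 5237 on the paraquat array and 4373 on the unexposed array (0.26 ± 0.19). Neither ratio lay beyond the 95% interval of array error. The 2 probe sets of mRpL11 gave 1375 and 2554 on the paraquat array, against 1317 and 2329 on the unexposed array. They agree in direction, and their mean ratio was 0.10 ± 0.32. In mRpL12 one probe set gave 2152 on the paraquat array and 3165 on the unexposed array (-0.56 ± 0.31), the second lowest ratio in mRpL. The other probe set of mRpL12 was under the floor on both arrays, at 437.4 on the paraquat array and -1594 on the unexposed array, and gives no ratio. The ratio of mRpL12 lay inside the 95% interval of array error, and it was 0.23 with a pseudocount in place of the floor, which takes in both of its probe sets.

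Around the exit of the tunnel that the new protein leaves through, 6 genes were measured. The highest ratio in mRpL belonged to mRpL22, whose bacterial counterpart lines this tunnel, with 1220 on the paraquat array and 545.5 on the unexposed array. The log2 ratio of 1.16 had an array error of 1.04, because the unexposed value was just above the floor, and with the pseudocount it was 0.73, short of 2-fold. More firmly measured was mRpL45, which in mammals sits at the exit and helps anchor the ribosome to the inner membrane. It had 7228 on the paraquat array and 4756 on the unexposed array (log2 0.60 ± 0.17). The other four exit proteins were slightly lower on the paraquat array. The values of mRpL23 were 8480 on the paraquat array and 9102 on the unexposed array (-0.10), and those of mRpL24 were 6183 on the paraquat array and 7084 on the unexposed array (-0.20). For mRpL17 the ratio was -0.29 ± 0.18, and for mRpL47, the counterpart of bacterial L29, -0.18 ± 0.22. None of these 4 lay beyond the 95% interval of array error.

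The other high ratios of the large subunit came from proteins spread over its structure. The mitochondria-specific mRpL39, related in mammals to threonyl-tRNA synthetase, had 3134 on the paraquat array and 1731 on the unexposed array (log2 0.86 ± 0.36). The values of mRpL15, which has a bacterial counterpart, were 2757 on the paraquat array and 1536 on the unexposed array (0.84 ± 0.40). For mRpL32 they were 3338 on the paraquat array and 1862 on the unexposed array (0.84 ± 0.34). These genes lay between 1.79-fold and 1.81-fold higher. The intensity of mRpL19 was 2534 on the paraquat array and 1424 on the unexposed array (0.83 ± 0.43). Next came mRpL40 (0.66 ± 0.48), mRpL9 (0.59 ± 0.21), mRpL46 (0.55 ± 0.41), mRpL21 (0.53 ± 0.48) and mRpL28 (0.45 ± 0.14). Of these, mRpL28 was the brightest, at 10662 on the paraquat array and 7789 on the unexposed array.

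Low ratios in the large subunit, after mRpL2 and mRpL12, belonged to mRpL35, mRpL20 and mRpL51. The values of mRpL35, counterpart of a small bacterial protein, were 3244 on the paraquat array and 4598 on the unexposed array (log2 -0.50 ± 0.23). For mRpL20, whose bacterial counterpart is needed early in assembly of the subunit, they were 1594 on the paraquat array and 2214 on the unexposed array (-0.47 ± 0.42). The mitochondria-specific mRpL51 had 5879 on the paraquat array and 7987 on the unexposed array (-0.44 ± 0.16). Only mRpL20 of these 3 lay inside the 95% interval of array error. The mitochondria-specific mRpL41 was above the floor on the unexposed array alone, at 1069 against -9.79 on the paraquat array. It was at least 2.24-fold lower measured against the floor, and at least 2.01-fold lower against the highest absent control of the paraquat array. With the paraquat value set at the floor, its log2 ratio of -1.16 lay inside the 95% interval of its array error (1.19). Besides mRpL4, mRpL43 was not above background on either array, with -952.8 on the paraquat array and 261.5 on the unexposed array.

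In the small subunit the 3 lowest ratios were the ones past 1.5-fold. The gene mRpS2, whose bacterial counterpart lies between head and body on the back of the subunit, had 2023 on the paraquat array and 3569 on the unexposed array (log2 -0.82 ± 0.32). The values of mRpS24, counterpart of bacterial S3 at the entry of the messenger, were 1301 on the paraquat array and 2249 on the unexposed array (-0.79 ± 0.47). Those of the mitochondria-specific mRpS33 were 3872 on the paraquat array and 6105 on the unexposed array (-0.66 ± 0.20). Of the 3, mRpS24 alone lay inside the 95% interval of array error. Lower by less were mRpS17 (-0.35 ± 0.34), whose bacterial counterpart binds ribosomal RNA early, and mRpS30 (-0.20 ± 0.30), which mammalian structures place in the large subunit in spite of its name.

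At the upper end of the small subunit stood mRpS22, a mitochondria-specific protein, with 3620 on the paraquat array and 2494 on the unexposed array (log2 0.54 ± 0.28). For mRpS11, of the platform that holds the messenger, the values were 7677 on the paraquat array and 5935 on the unexposed array (0.37 ± 0.16). Next were mRpS25 (0.34 ± 0.21), mRpS9 (0.24 ± 0.16) and mRpS16 (0.23 ± 0.15). Of these 5, mRpS11 lay beyond the 95% interval of array error. The brightest gene of the subunit, mRpS7, whose bacterial counterpart organises the head, had 11455 on the paraquat array and 12184 on the unexposed array (-0.09 ± 0.13). Close to equal were also mRpS6 (0.02), mRpS28 (0.03) and mRpS29 (-0.07), the fly relative of the mammalian GTP-binding protein DAP3. Of the 3 genes named after bacterial S18, mRpS18C had 6305 on the paraquat array and 7043 on the unexposed array (-0.16). The probe sets of mRpS18A and mRpS18B were below 0 on both arrays and give no ratio.

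Grouping by descent gave medians near 0 in each class. The 26 measured mRpL genes with a bacterial counterpart had a median log2 ratio of -0.08, and the 14 that are mitochondria-specific had -0.04. Of the genes named mRpS, 10 with a bacterial counterpart had a median of -0.04 and 9 that are mitochondria-specific had 0.12. The mitochondria-specific mRpS class includes mRpS30, which mammalian structures place in the large subunit. The 2-fold differences of genes measured on both arrays, mRpL2 and mRpL22, were both among the genes with a bacterial counterpart. The classes were taken from bacterial and mammalian ribosome structures as textbook knowledge.

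In mRpL, higher ratios were found mostly among the dimmer genes. Of 9 mRpL genes with a mean intensity between 1000 and 2000, 7 had ratios above 0 (median 0.53), where 54.3% of all genes in that band did (median 0.06). Of 16 between 2000 and 5000, 5 had ratios above 0 (median -0.16), where 53.5% of all genes in that band did (median 0.04). Of 13 at or above 5000, 3 did (median -0.09), where 48.1% of all genes in that band did (median -0.03). Both mRpL genes below 1000, mRpL3 and mRpL22, had ratios above 0. As a description across 40 genes on the same pair of arrays, the ratio and the mean log2 level had a Pearson r of -0.37 and a Spearman rho of -0.33. Over 19 mRpS genes the signs were opposite, at 0.37 and 0.40, and over all 6178 genes the values were -0.06 and -0.05. The brighter members varied least: across the 22 genes of both subunits at or above 5000, the ratios ran from -0.44 to 0.60 with an SD of 0.27, beside 0.97 over all genes in that band.

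**Figure D3:**
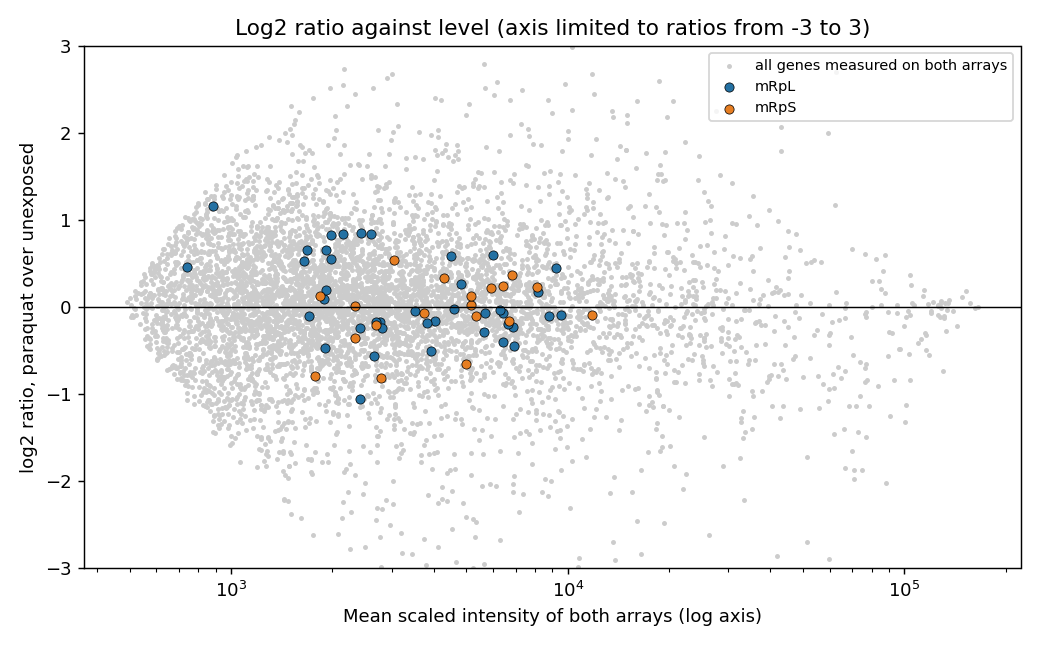
Log2 ratio of paraquat over unexposed against the mean scaled intensity of both arrays (log axis) for 6178 genes (grey), mRpL (blue) and mRpS (orange). The vertical axis stops at -3 and 3. The mitochondrial ribosomal proteins lie in the middle of the intensity range and close to 0, and several mRpL genes near 2000 sit between 0.5 and 0.9.

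Most other genes of mitochondrial translation and expression that were measured on both arrays had ratios above 0, and 1 gene above the floor on the unexposed array alone, Lrpprc2, was lower. The ribosomal proteins tko, the counterpart of bacterial S12, and bonsai, that of S15, carry names outside the rule. The values of tko were 2670 on the paraquat array and 2369 on the unexposed array (log2 0.17 ± 0.31), and those of bonsai were 2698 on the paraquat array and 2317 on the unexposed array (0.22 ± 0.32). Of 8 translation factors, 4 were measured, with ratios above 0 and none past 2-fold. The highest was mEFTu1, the elongation factor that brings transfer RNA to the ribosome, with 4142 on the paraquat array and 2409 on the unexposed array (0.78 ± 0.27). The others were mEFG1 (0.28 ± 0.59), mEFTu2 (0.23 ± 0.24) and mEFTs (0.10 ± 0.29). Among 15 genes of mitochondrial DNA and RNA handling, 10 were measured, 9 had ratios above 0 (background 52.2%) and 2 were at least 2-fold higher (background 8.03%). These were the transcription factor mtTFB2 (1.34 ± 0.78) and mTerf3 (1.10 ± 0.64), followed by the DNA-binding protein mtSSB (0.75 ± 0.23) and the terminator mTTF (0.68 ± 0.66). The array errors of mtTFB2, mTerf3 and mTTF were wide. Together these 14 measured factors had a median of 0.39. The largest differences in this list belonged to 2 genes outside the measured ones. The gene Lrpprc2, relative of a mammalian protein that binds mitochondrial messengers, had 421.1 on the paraquat array and 2507 on the unexposed array, at least 5.25-fold lower against the floor and at least 4.70-fold against the highest absent control. For mtDNA-helicase, which unwinds mitochondrial DNA, the values were 2606 on the paraquat array and -459.6 on the unexposed array, at least 5.46-fold higher. These genes, named after their values were seen, went in opposite directions, and the array error at the floor was 1.11 on the log2 scale for each.

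Respiratory chain and ATP synthase genes had lower ratios than most mitochondrial ribosomal proteins. Of 51 measured, 50 had ratios below 0 (background 47.8%) and 8 were at least 2-fold lower (background 8.08%). The medians were -0.58 for 25 subunits of complex I, -0.71 for 14 of complexes III and IV and -0.96 for 12 of the ATP synthase. Named by size, ATPsynbeta, the catalytic subunit, had -1.50, ND-B18 -1.15, ATPsynF -1.14 and ATPsynO -1.13. Of the 59 mitochondrial ribosomal proteins, 3 had ratios at or under the respiratory median of -0.68, namely mRpL2, mRpS2 and mRpS24. Levels in the 2 lists overlapped only in part, with most respiratory genes brighter than any measured mitochondrial ribosomal protein. The respiratory genes ran from 5824 to 103140 on the paraquat array (median 28644) and from 8121 to 126802 on the unexposed array (median 47427). The brightest mitochondrial ribosomal protein had 11455 on the paraquat array and 12184 on the unexposed array. Within the mitochondrial ribosomal proteins at or above 5000, the median was -0.07 over 22 genes. This cut does not match the levels of the 2 lists.

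Cytosolic ribosomal proteins, which build the ribosome outside mitochondria, had a median of 0.03 over 30 measured genes and an SD of 0.30. Past 2-fold was 1 of 30, RpS5b (1.02 ± 0.56), where 8.03% of all measured genes were at least 2-fold higher and 8.08% lower. By size, RpS10a (-0.99 ± 0.89), RpS12 (0.42 ± 0.12) and RpL28 (0.41 ± 0.12) came next. Their median intensity was 118460 on the paraquat array and 107806 on the unexposed array, near the top of the scale (highest gene 165113 on the paraquat array and 165485 on the unexposed array). A limit on their ratios from this was not tested. Of 14 genes of mitochondrial protein import, 9 were measured, with a median of -0.11. The outer membrane translocase subunit Tom7 was lower, with 1238 on the paraquat array and 3930 on the unexposed array (-1.67 ± 0.45), and ttm50 (-0.66 ± 1.18), blp (0.43 ± 0.42) and Tom40 (0.20 ± 0.91) followed.

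**Figure D4:**
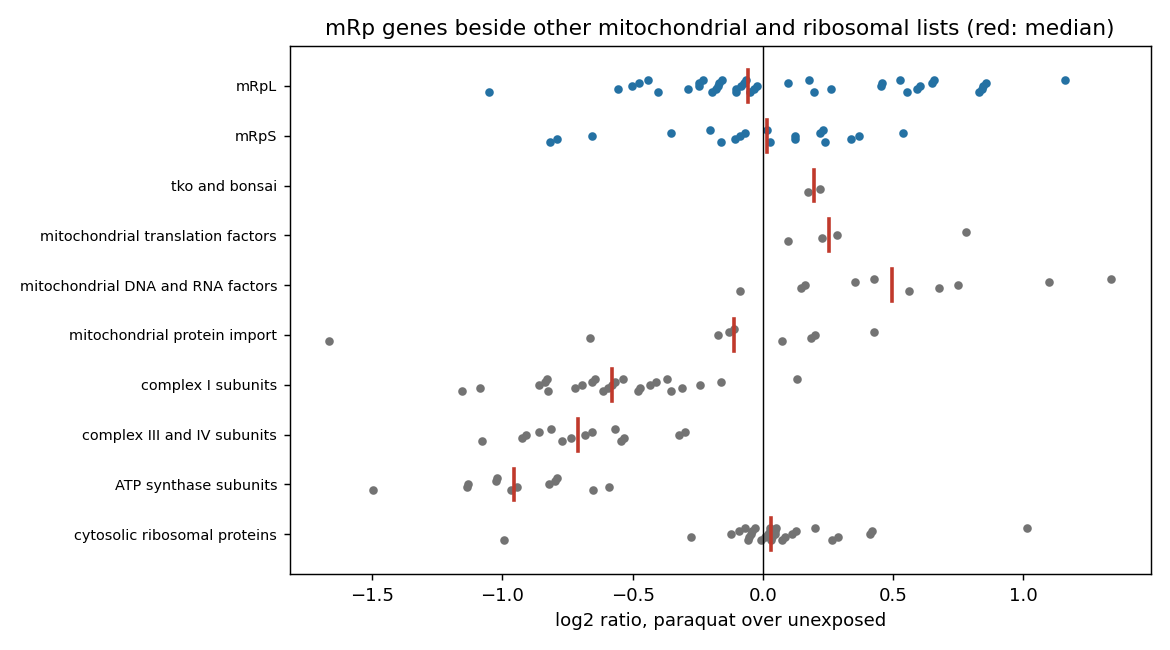
Log2 ratio of paraquat over unexposed for each measured gene (points) of the mRpL and mRpS lists (blue) and of other mitochondrial and ribosomal lists (grey), with the list median as a red bar. The mRpL and mRpS medians (-0.06 and 0.02) lie near 0 like that of the cytosolic ribosomal proteins (0.03), and the 3 respiratory lists lie at -0.58, -0.71 and -0.96.

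Head markers were present on both arrays, with 5 of 5 photoreceptor genes measured (median log2 ratio -0.10) and 5 of 7 neuronal genes (-0.25, with 1 probe set of brp and 1 of cac below 0 on each array). In whole heads, fewer cells of a type and less RNA per cell cannot be told apart. Markers of several other tissues were lower on the paraquat array. The summed intensity of 9 muscle probe sets, with values below 0 set to 0, was 45102 on the paraquat array and 131120 on the unexposed array. Most of this sum came from 1 gene (29008 on the paraquat array and 104443 on the unexposed array). Of 7 muscle genes 3 were measured, with a median of -0.67 and 1 at least 2-fold lower (background 8.08%). The muscle probe set of TpnC4 and 1 of the 2 of up were below 0 on both arrays. On the paraquat array fln was also below 0, and on the unexposed array Mlp60A was. The sum of 6 head fat body probe sets was 30706 on the paraquat array and 381221 on the unexposed array, with none below 0. Markers of the male reproductive tract, which lies outside the head, reached the floor with 1 of 9 probe sets on the paraquat array and 9 of 9 on the unexposed array, and they summed to 2152 on the paraquat array and 32377 on the unexposed array. On the paraquat array 5 of these 9 (Acp36DE, Acp53Ea, Acp95EF, Mst57Da and Mst84Dd) were below 0. Glial markers went both ways. At or above the floor were 8 of 8 glial probe sets on the paraquat array and 6 of 8 on the unexposed array. Of 6 measured glial genes, 3 were at least 2-fold lower (background 8.08%) and 1 at least 2-fold higher (background 8.03%). Their median was -0.85. The glial probe sets summed to 104598 on the paraquat array and 128175 on the unexposed array. Most of this sum came from 1 gene (82275 on the paraquat array and 101176 on the unexposed array). Among the glial markers, 1 of the 2 probe sets of loco was below 0 on the unexposed array. Haemocyte markers summed to 5711 on the paraquat array and 9281 on the unexposed array (3 probe sets), with NimC1 below 0 on the unexposed array. Gut enzymes were at or below 0 on the paraquat array with 5 of 5 probe sets and on the unexposed array with 3 of 5 (Jon65Aiv, LysX and betaTry). The summed intensity of the 66 mitochondrial ribosomal protein probe sets was 257759 on the paraquat array and 256229 on the unexposed array. The part of these tissues in the ratios of single genes was not tested.

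The array annotation names fewer of these genes than the current RefSeq gene table, which holds 73 symbols that start with mRpL or mRpS. All 64 genes on the array matched it, and 9 of its symbols had no probe set of their own: mRpL27, mRpL34, mRpL37, mRpL53, mRpS5, mRpS10, mRpS14, mRpS21 and mRpS23. For 1 of them, mRpS10, a probe set is shared with CG34316, which gave 2172 on the paraquat array and 2724 on the unexposed array (log2 -0.33 ± 0.33) and cannot be assigned to either gene.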

How the data were processed

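The deposited intensities are linear, 1 per probe set and array, and negative where background exceeded signal. From the values, the authors had set the mean of each array, without 2% of probe sets at each end, to 2500. The labels name no summary software. Here both arrays were brought to the same median, 825.2 over 13966 non-control probe sets (factors 0.99 paraquat, 1.01 unexposed), floored at 477.3 and put on the log2 scale (Python 3.11.15, pandas 2.3.3, numpy 2.4.6). A gene took the mean log2 ratio of its measured probe sets. The array error joins an additive SD of 358.3 (46 values of absent controls) and a proportional SD of 0.12 (9 spiked-in control probe sets). The number of arrays limits the precision. The code was tested on simulated data.

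Gene names came from the 2016 platform annotation: 12443 probe sets had a single symbol, 327 more than 1, and 1196 were unnamed. The RefSeq table (Release 6) served to check names. Its coordinates and sequences were not used here.

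The members and lists were chosen with earlier results of these data known. Named by rule were the 5 highest and 5 lowest log2 ratios of each subunit, genes with a bound of at least 1.5-fold, and the 4 largest absolute ratios of each other list. Further members were named for their role or after their values were seen. Alternatives covered scaling, the floor, a pseudocount and the choice of probe set.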

Additional observations from a re-analysis of the deposited data

How the results depend on the processing

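No difference here has a replicate check, and each ratio rests on 1 array per group. Across 8 alternatives the mRpL median ran from -0.10 to -0.02, the mRpS median from -0.04 to 0.08, below 0 in 2 of 8 and at 0 in 1, and their difference from -0.15 to -0.04. All 8 kept the mRpL median below 0. The count of mRpL genes at least 2-fold lower was 0 with the floor at the 80th percentile (3642), where 16 mRpL and 12 mRpS genes were left. With the pseudocount it was 1, but that gene was mRpL41, since mRpL2 had -0.87. The count at least 2-fold higher was 0 with a floor at the 60th percentile (1339), with one at the 80th, and with the pseudocount, because mRpL22 was left out or its ratio fell short of 2-fold. Counts of ratios below 0 were 12 mRpL and 5 mRpS genes with the floor at the 80th percentile, where fewer genes were measured. For cytosolic ribosomal proteins the median was 0.19 after loess, for the respiratory chain and ATP synthase -0.51 after quantile normalization, and for translation and expression factors 0.17 with the floor at the 80th percentile (2 genes) and 0.25 with the pseudocount. The sign of mRpL12 turned with the pseudocount (0.23), which takes in its second probe set. The other 143 values of named genes moved by less than their array error. Named genes left out by a raised floor have no value there, among them mRpL2, mRpL39 and mRpS2 at the 80th percentile. The planned floor at the 20th percentile was not run, because that percentile lies below 0 (-20.4) and has no log2. No paired analysis was possible because the groups hold 1 array each.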
